A study of Mus musculus with 2 samples.

Results

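The genes described here are 37 interferon-induced and class I antigen presentation genes among the 27998 genes listed for mouse epididymal white adipose tissue (eWAT). They were taken by symbol from a list that uses no measured value as a threshold but was chosen with earlier results of these data known. By role they are 8 gamma-type GTPases (Gbp2, Gbp3, Gbp4, Gbp5, Gbp6, Gbp7, Iigp1 and Igtp), 3 other GTPases of the same defence family (Irgm1, Irgm2 and Ifi47), 5 type I genes (Ifit1, Ifit2, Ifit3, Isg15 and Mx1) and 8 other induced genes (Usp18, Rsad2, Oasl2, Ifi44, Zbp1, Bst2, Ifitm3 and Xaf1). The list is completed by 4 transcription factors (Stat2, Irf1, Irf7 and Irf9), 3 peptide-loading genes (Tap1, Tap2 and Tapbp), 3 immunoproteasome subunits (Psmb8, Psmb9 and Psmb10) and 3 class I chains (B2m, H2-K1 and H2-D1). All 37 symbols were found in the tables.

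The stromal vascular fraction of eWAT from male mice, labelled C57BL/6 and named C57BL/6J in the study's methods, was profiled by droplet-based 3' RNA sequencing. Its unit is the unique molecular identifier (UMI), a tag that lets copies of 1 captured RNA be counted as 1. The mice were fed a low-fat diet (LFD) or a high-fat diet (HFD) for 24 wk from 6 wk of age. The groups follow the title and treatment labels, whereas the free-text protocol of both libraries names only the low-fat diet. There was 1 library per diet, and the number of mice behind each is not given in the sources used here. No difference between diets could therefore be tested, and every interval below is a 95% interval for counting error only.

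Interferons are cytokines that bind cell surface receptors and switch on genes through JAK kinases and STAT factors. Type II interferon, or interferon gamma, is made chiefly by T and NK cells and acts on GAS elements. It induces the guanylate-binding proteins (Gbp) and the immunity-related GTPases (Iigp1, Igtp, Irgm1 and relatives), which attack the vacuoles of intracellular pathogens. Type I interferons act through a complex that holds STAT2 and IRF9 on ISRE elements and induce Ifit, Isg15 and Mx1, which act against viruses. Both also raise class I presentation, in which peptides cut by the immunoproteasome are carried by the TAP transporter, loaded with tapasin (Tapbp) and shown to CD8 T cells on H2-K1 or H2-D1 with B2m.

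The promoter sequences of 6 members are shown as examples of the ISRE and GAS letters found next to the start site. They are the 120 bases before the annotated start, from RefSeq on GRCm38.p6, read 5′ to 3′ on the strand of the gene, with ISRE letters (GAAANNGAAA) and GAS letters (TTCNNNGAA) in capitals on either strand. The first pair, Isg15 (chr4:156200819-156200938, minus strand) and Ifit1 (chr19:34640769-34640888, plus strand), belong to the type I list. Gbp2 (chr3:142620543-142620662, plus strand), Igtp (chr11:58199436-58199555, plus strand) and Irgm2 (chr11:58214857-58214976, plus strand) are GTPases, and Irf1 (chr11:53769894-53770013, plus strand) is a factor.
Isg15: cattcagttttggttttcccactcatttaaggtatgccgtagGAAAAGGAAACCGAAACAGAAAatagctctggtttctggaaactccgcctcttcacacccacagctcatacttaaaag
Ifit1: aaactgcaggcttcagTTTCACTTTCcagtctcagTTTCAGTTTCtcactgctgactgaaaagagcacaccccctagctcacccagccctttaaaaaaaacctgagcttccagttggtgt
Gbp2: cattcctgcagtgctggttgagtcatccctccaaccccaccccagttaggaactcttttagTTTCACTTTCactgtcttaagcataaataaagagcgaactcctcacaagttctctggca
Igtp: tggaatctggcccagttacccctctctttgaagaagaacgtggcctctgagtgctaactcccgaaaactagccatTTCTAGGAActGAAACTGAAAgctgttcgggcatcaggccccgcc
Irgm2: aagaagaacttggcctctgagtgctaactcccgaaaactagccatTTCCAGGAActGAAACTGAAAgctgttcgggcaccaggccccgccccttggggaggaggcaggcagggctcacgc
Irf1: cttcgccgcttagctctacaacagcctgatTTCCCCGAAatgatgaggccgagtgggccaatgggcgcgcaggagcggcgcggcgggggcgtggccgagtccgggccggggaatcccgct

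Isg15 held 3 overlapping ISRE matches that began 78, 72 and 66 bases before the start, and Ifit1 held 2, at 104 and 85 bases. Igtp and Irgm2 carried a GAS match and an ISRE match side by side. Lined up at the GAS letters, 87 of the 90 bases that could be compared were identical between these neighbouring genes. Irf1 had a GAS match at 90 bases and no ISRE match. Over the 250 bases before the start, 14 of the 35 RefSeq windows of 30 members held an ISRE match (40%), against 2.98% of all 32851 windows. A GAS match was found in 8 of 35 (22.9%), against 7.02% of windows. By role, an ISRE match was present in 5 of 5 gamma-type genes with a window, in 3 of 4 type I genes, in 2 of 3 other GTPases, in 2 of 6 other induced genes, in 1 of 4 factors, in 1 of 3 class I chains (B2m), and in 0 of 3 immunoproteasome and 0 of 2 loading genes. A GAS match was present in 3 of 5 gamma-type genes and in 1 gene each of the other GTPases, the type I genes, the other induced genes, the factors and the immunoproteasome. A match describes these letters only.

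Barcodes with at least 200 genes were placed in classes by fixed UMI sums, and those that met more than 1 rule were left out. The rules were Dcn of at least 10 for fibroblasts, Cdh5 and Cldn5 of at least 3 for endothelial cells, Rgs5, Kcnj8, Abcc9 and Notch3 of at least 5 for mural cells, C1qa, C1qb and C1qc of at least 10 for macrophages, and Cd3d, Cd3e and Cd3g of at least 2 for T cells. This gave 377 LFD and 291 HFD fibroblasts, 98 and 115 endothelial cells, 229 and 320 macrophages, and 72 and 21 T cells. Only 5 and 6 barcodes were purely mural, because 58 LFD and 108 HFD barcodes met the endothelial and the mural rule together. The 51 and 92 of them that met no further rule were added as a set of their own after the data had been seen, and purely mural cells, with 5 gamma-type UMIs in LFD and 1 in HFD, are not compared. The LFD library held 1113 barcodes and 7356278 UMIs and the HFD library 1144 barcodes and 8412325 UMIs, with no barcode in both. Markers that the rules did not use were then summed in CPM (counts per 1000000 UMIs of the class). In LFD and HFD, 6 fibroblast markers stood at 27351 and 40091 CPM in fibroblasts, 6 endothelial markers at 7177 and 7574 CPM in endothelial cells, and 6 macrophage markers at 4442 and 3592 CPM in macrophages. In the T cell class 4 T cell markers stood at 836 and 1576 CPM and 4 NK cell markers, chiefly Nkg7, which cytotoxic T cells also express, at 1098 and 1491 CPM, so NK cells in this class cannot be told apart from T cells. In the 5 LFD mural barcodes fibroblast markers (4247 CPM) exceeded mural markers (2238 CPM). The LFD T cell class also held 567 CPM of macrophage markers and 146 CPM of B cell markers, against 21.3 and 0 CPM in HFD.

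Summed over the gamma-type list, expression was lower in the HFD library in fibroblasts, endothelial cells and macrophages. In fibroblasts the 8 genes together stood at 520 CPM (495 to 546) in LFD and 173 CPM (157 to 191) in HFD, a 2.999-fold difference (2.69 to 3.35). In endothelial cells they stood at 2140 and 914 CPM, 2.34-fold apart (2.10 to 2.61). In macrophages the levels were 480 and 86.2 CPM, 5.57-fold apart (4.81 to 6.46). This was 2.31-fold under the barcode limits of the study and 2.97-fold in macrophages without Trem2, Spp1 or Gpnmb UMIs. The double endothelial and mural barcodes had 1667 and 813 CPM, 2.05-fold apart (1.87 to 2.25). The order of the classes in LFD was endothelial, then fibroblast and macrophage with overlapping intervals. In HFD macrophages lay below fibroblasts.

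The type I list was also lower in HFD in these classes, by 1.97-fold in fibroblasts (151 against 76.4 CPM, 1.66 to 2.35), 4.99-fold in endothelial cells (966 against 194 CPM, 4.02 to 6.24) and 2.26-fold in macrophages (205 against 91.0 CPM, 1.91 to 2.67). In the double endothelial and mural barcodes the difference was 1.48-fold (314 against 212 CPM, 1.22 to 1.80), and without Isg15 it was 1.21-fold with an interval that held 1. The macrophage value was 4.20-fold in cells without Trem2, Spp1 or Gpnmb UMIs, and under the barcode limits of the study it turned direction, at 0.47 on the log2 HFD over LFD scale with an interval that held 0 (-0.09 to 1.06). The class I list differed least, by 1.27-fold in fibroblasts (2821 against 2215 CPM), 1.25-fold in endothelial cells (8013 against 6407 CPM) and 1.22-fold in macrophages (5131 against 4208 CPM). Under the barcode limits of the study the fibroblast value was 0.994-fold and the endothelial type I value 1.62-fold.

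**Figure D1:**
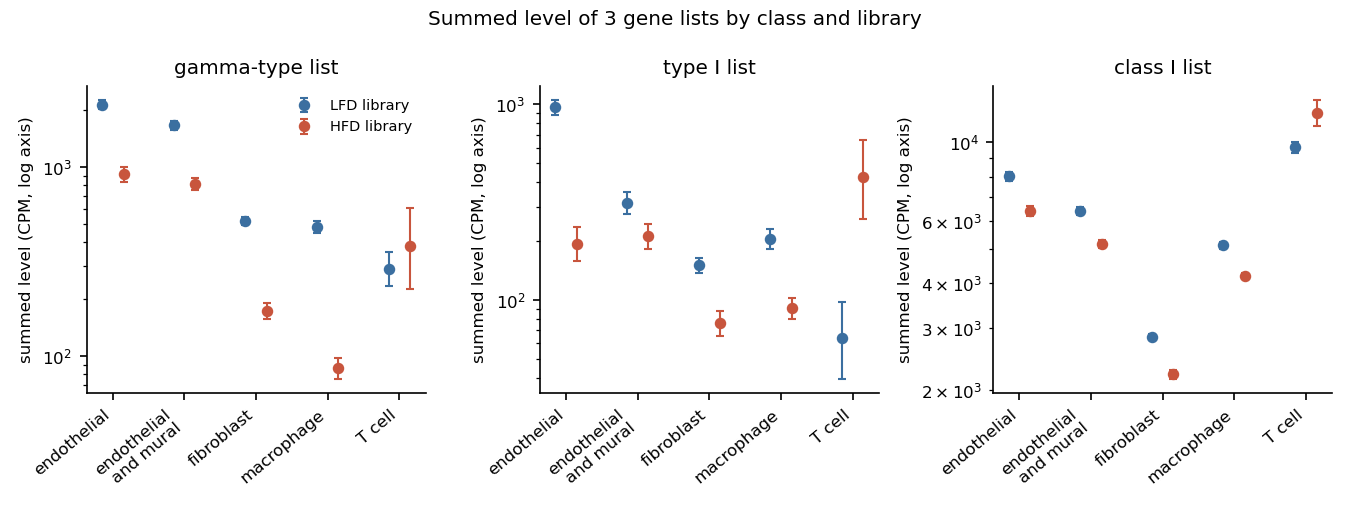
Summed level in CPM on a log axis (y) of the gamma-type, type I and class I lists in 5 sets of barcodes (x), with points for the LFD and HFD library and bars for the exact Poisson 95% interval. The gamma-type points lie apart between libraries in endothelial cells (2140 and 914 CPM), fibroblasts (520 and 173 CPM) and macrophages (480 and 86.2 CPM), while class I points lie close together and T cells show wide intervals.

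Counted gene by gene, a member was taken as past the fold where the HFD and LFD levels differed at least 1.5-fold and the gene had at least 50 UMIs over both libraries. In fibroblasts 19 of the 30 members with enough UMIs were lower in HFD and 0 were higher, against 8.59% lower and 4.9% higher among all 8339 genes with enough UMIs. The median log2 HFD over LFD was -0.75 over the members and -0.03 over all genes. In endothelial cells 15 of 27 were lower and 0 higher, against 5.62% and 5.71% of all genes, with medians of -1.02 and 0.01. In macrophages 23 of 30 were lower and 0 higher, against 16.8% and 14.2%, with medians of -1.18 and -0.02. In the double endothelial and mural barcodes 12 of 28 were lower and 0 higher, against 4.24% and 5.11%. In T cells only 8 members had enough UMIs, of which 1 was lower and 1 higher, against 20.6% and 12.7%. The members were chosen with earlier results of these data known, so these counts are not a test of the list.

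**Figure D2:**
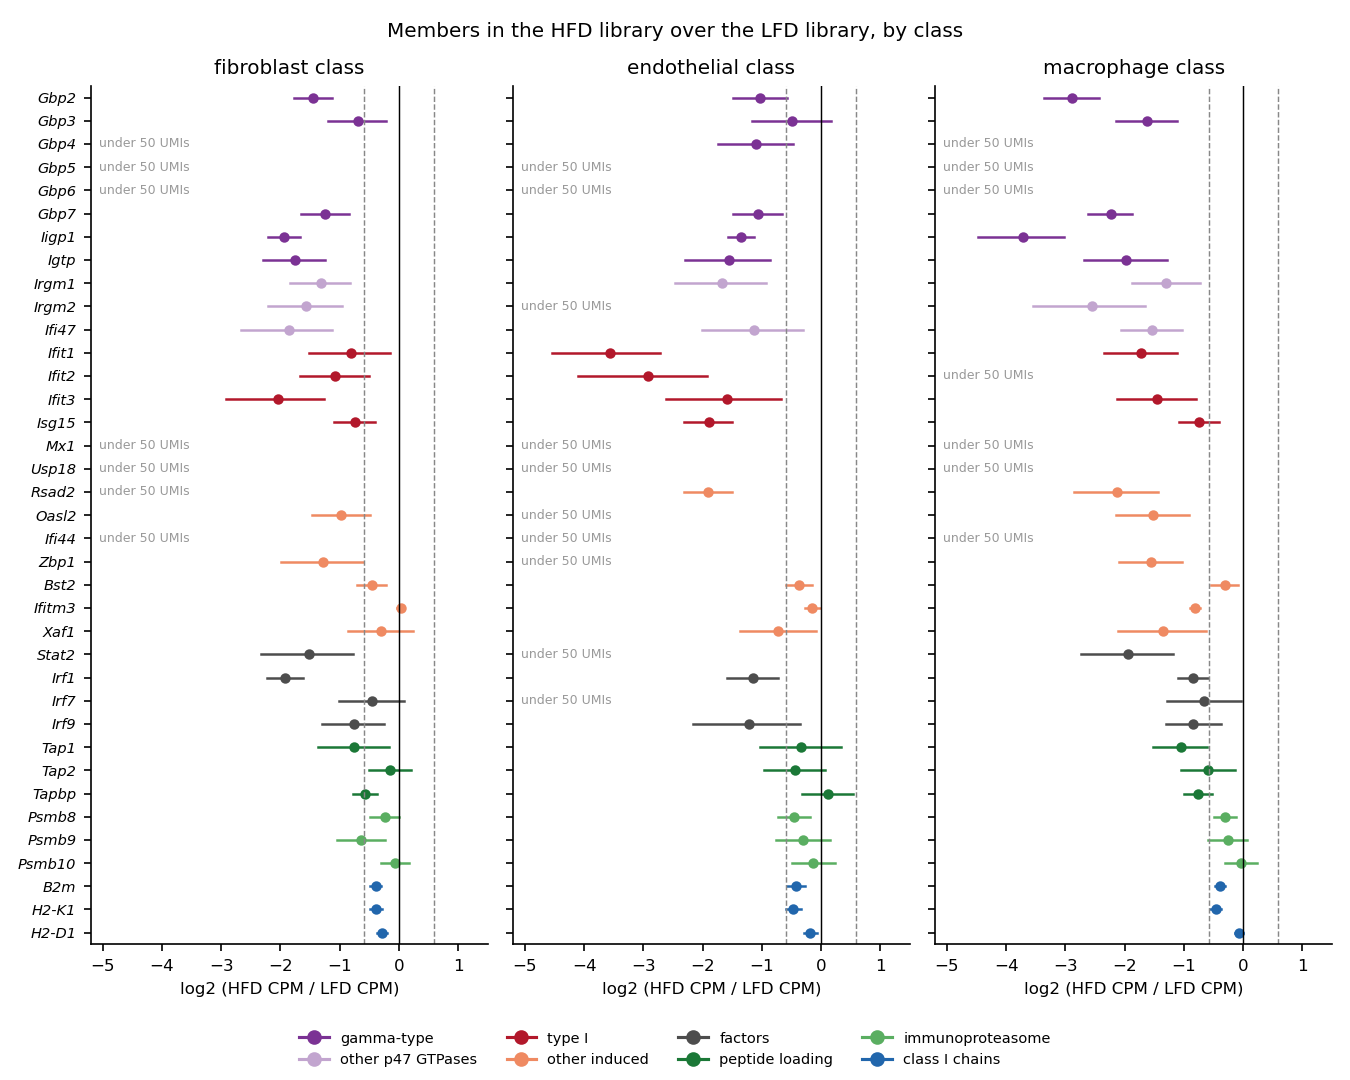
Log2 ratio of HFD over LFD CPM (x) for each member (y) with at least 50 UMIs in fibroblasts, endothelial cells and macrophages, with bars for the exact conditional 95% counting interval, colours for the role and dashed lines at 1.5-fold. Points of GTPases, type I genes and factors lie left of the lower line in most cases, and no point lies right of the upper line.

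Iigp1, a GTPase that coats pathogen vacuoles, was the most abundant gamma-type gene in fibroblasts and endothelial cells. It stood at 226 CPM in LFD and 59.0 CPM in HFD fibroblasts (3.82-fold, 3.19 to 4.61), at 1205 and 474 CPM in endothelial cells (2.54-fold, 2.19 to 2.95) and at 90.6 and 6.89 CPM in macrophages (13.1-fold, 8.18 to 22.2). The HFD library was the lower of the pair in each class. At least 1 Iigp1 UMI was seen in 35.8% of LFD and 17.2% of HFD fibroblasts, 69.4% and 48.7% of endothelial cells, and 10.9% and 4.38% of macrophages. After each barcode was thinned to 1000 UMIs these shares were 12.6% and 3.46%, 50.5% and 25%, and 4.46% and 0.627%. As a scale for free RNA, the fibroblast gene Dcn had a UMI in 10.2% of LFD and 9.57% of HFD endothelial cells, 3.30% and 3.12% after thinning. In macrophages Dcn had a UMI in 17.0% and 10.6% of cells and stood at 39.9 and 12.1 CPM, against 19839 and 17097 CPM in fibroblasts. The Iigp1 shares in macrophages were below those of Dcn, whose level in fibroblasts was far higher. By level, Iigp1 lay above Dcn in LFD macrophages (90.6 against 39.9 CPM) and below it in HFD macrophages (6.89 against 12.1 CPM). The part of free RNA was not tested, so the macrophage shares are not read as expression in a given share of cells. In endothelial cells the Iigp1 shares lay above those of Dcn.

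Gbp2 and Gbp7, which belong to the guanylate-binding proteins, were lower in HFD in every one of these classes. Gbp2 was at 122 and 44.6 CPM in fibroblasts (2.73-fold, 2.20 to 3.41), at 244 and 120 CPM in endothelial cells (2.04-fold, 1.496 to 2.79), and at 130 and 17.6 CPM in macrophages (7.42-fold, 5.42 to 10.3). Gbp7 was at 66.5 and 28.1 CPM in fibroblasts, 293 and 139 CPM in endothelial cells, and 140 and 29.6 CPM in macrophages, which is 4.72-fold in the last (3.65 to 6.14). Gbp3 differed less, by 1.62-fold in fibroblasts (1.16 to 2.29) and 3.09-fold in macrophages (2.17 to 4.42), and in endothelial cells its interval held 1 (1.402-fold, 0.891 to 2.23). Gbp4 had 22 and 3 UMIs in fibroblasts and 23 and 2 in macrophages but reached 50 in endothelial cells, with 132 CPM in LFD and 62.0 CPM in HFD (2.13-fold, 1.39 to 3.34). Gbp5 had 20 and 5 UMIs in fibroblasts, 21 and 3 in endothelial cells and 10 and 9 in macrophages. Gbp6, whose reads were split over a pair of identifiers, had 11 and 1 UMIs, 3 and 1, and 4 and 1. Gbp4 overlaps Gbp8 and Gbp9 on the same strand and Gbp paralogs are alike in sequence, so counts within the family are less certain than their sum.

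Igtp and its relatives Irgm1, Irgm2 and Ifi47 followed the same direction. Igtp was at 54.1 CPM in LFD and 16.1 CPM in HFD fibroblasts (3.36-fold, 2.36 to 4.89), 130 and 44.5 CPM in endothelial cells (2.92-fold, 1.81 to 4.90), and 36.5 and 9.31 CPM in macrophages (3.92-fold, 2.43 to 6.47). Irgm2, which overlaps Igtp on the same strand, was 2.96-fold lower in HFD fibroblasts (1.95 to 4.62) and 5.88-fold lower in HFD macrophages (3.15 to 11.7). In endothelial cells Irgm2 had 26 and 14 UMIs. Irgm1 was 2.49-fold, 3.18-fold and 2.46-fold lower in HFD fibroblasts, endothelial cells and macrophages, and Ifi47 was 3.63-fold, 2.18-fold and 2.91-fold lower. The 3 genes passed the fold in each of these 3 classes where they had at least 50 UMIs. In LFD endothelial cells, however, 1 barcode held 28 of 68 Irgm1 UMIs and 17 of 42 Ifi47 UMIs. Without the barcodes richest in type I UMIs, Irgm1 was 2.03-fold lower there (1.15 to 3.71), and Ifi47 was 1.42-fold lower on 25 and 17 UMIs, with an interval that held 1 (0.735 to 2.80).

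Type I genes were read in fewer cells than gamma-type genes, and much of their signal sat in single barcodes. In LFD endothelial cells 1 barcode with 20234 UMIs, 4.69 times the class median, held 311 of the 534 type I UMIs (58.2%), and the next held 18. The same barcode held 122 of the 152 Ifit1 UMIs and 156 of the 268 Rsad2 UMIs of its class, but 75 of the 666 Iigp1 UMIs. Without the richest barcode of each library, the type I difference in endothelial cells was 2.53-fold (1.96 to 3.29) in place of 4.99-fold, and 10 of 23 members with enough UMIs were past the fold in place of 15 of 27. Among all genes 5.62% were lower with every barcode kept, and their share without these barcodes is not given. In macrophages the richest pair of LFD barcodes held 75 and 68 of 304 type I UMIs, and the richest pair in HFD held 45 and 44 of 264. The richest 10% of macrophages held 83.2% of type I UMIs in LFD and 90.5% in HFD. Fibroblasts had no such barcode, with 30 of 476 UMIs in the richest LFD barcode and 21 of 185 in the richest HFD barcode.

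**Figure D3:**
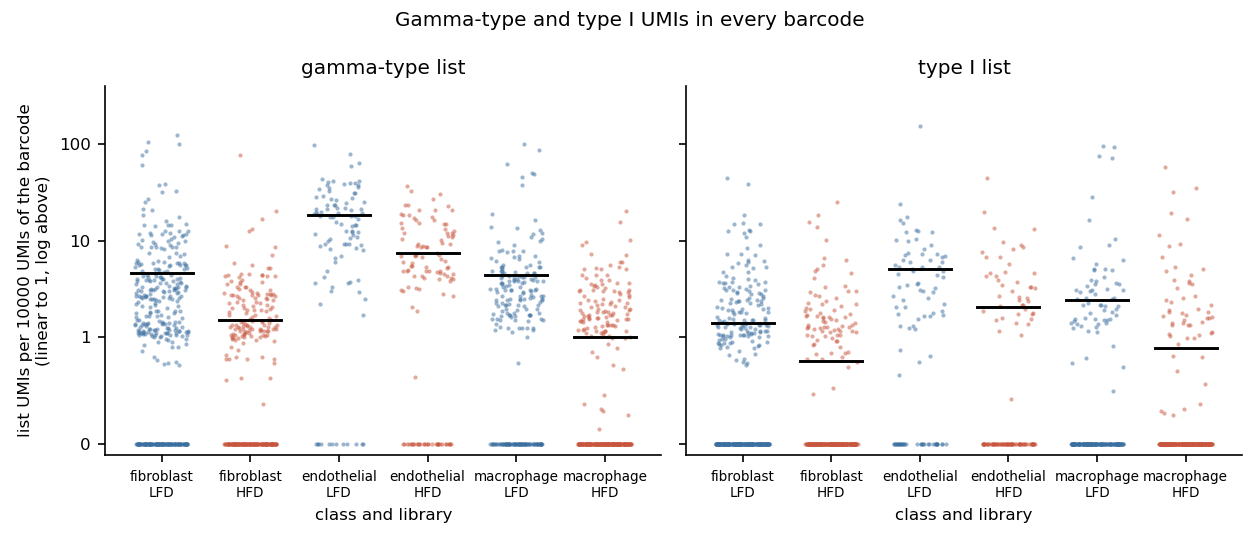
UMIs of the gamma-type and type I lists per 10000 UMIs of each barcode (y, linear to 1 and log above) in fibroblasts, endothelial cells and macrophages of each library (x), with 1 point per barcode, spread sideways at random, and a line at the mean over barcodes. Most macrophages and fibroblasts sit at 0 for the type I list and a few barcodes rise far above the rest, while gamma-type UMIs were found in 87.8% of LFD and 73.0% of HFD endothelial cells.

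The gamma-type list was less concentrated than the type I list in LFD endothelial cells and in macrophages of both diets, but not in fibroblasts. The richest barcode held 216 of 1643 UMIs in LFD fibroblasts (13.1%), 160 of 1183 in LFD endothelial cells (13.5%) and 87 of 710 in LFD macrophages. In HFD fibroblasts it held 100 of 420 (23.8%). Without the richest barcode of each library the differences were 3.44-fold in fibroblasts, 2.27-fold in endothelial cells and 5.31-fold in macrophages. After thinning, a gamma-type UMI was seen in 25.3% of LFD and 7.96% of HFD fibroblasts, 65.9% and 50% of endothelial cells, and 23.7% and 7.84% of macrophages.

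Isg15, a ubiquitin-like modifier, had the most UMIs of the type I list in these classes. It stood at 73.4 and 43.8 CPM in LFD and HFD fibroblasts (1.68-fold, 1.33 to 2.13), at 476 and 128 CPM in endothelial cells (3.72-fold, 2.83 to 4.95) and at 96.0 and 57.2 CPM in macrophages (1.68-fold, 1.33 to 2.11). The difference in endothelial cells was 2.65-fold without the richest barcodes (1.92 to 3.71). Ifit1, Ifit2 and Ifit3, which bind viral RNA or associate with such proteins, were 1.76-fold, 2.10-fold and 4.12-fold lower in HFD fibroblasts. In macrophages Ifit1 and Ifit3 were 3.30-fold and 2.75-fold lower, and Ifit2 had 29 and 10 UMIs. Without the richest barcodes macrophage Ifit1 was 1.72-fold lower (1.04 to 2.84). In endothelial cells Ifit1 had 152 UMIs in LFD and 12 in HFD (11.8-fold, 6.58 to 23.4), and 30 and 11 without the richest barcodes (2.63-fold, 1.28 to 5.81). Ifit2 was 7.58-fold lower there (3.78 to 17.2), and 3.53-fold on 33 and 9 UMIs without them. Ifit3 was 3.02-fold lower there (1.59 to 6.13), on 42 and 13 UMIs, of which 17 and 13 were left without those barcodes (1.26-fold, 0.576 to 2.82). Mx1 was hardly read, with 0 and 1 UMIs in fibroblasts, 4 and 0 in endothelial cells and 20 and 15 in macrophages.

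The other induced genes differed more from one another. Rsad2, or viperin, was at 485 and 130 CPM in endothelial cells (3.74-fold, 2.85 to 4.96), of which 210 and 127 CPM were left without the richest barcodes (1.66-fold, 1.21 to 2.29). In macrophages it was at 39.2 and 8.96 CPM (4.37-fold, 2.71 to 7.24), or 2.53-fold (1.47 to 4.40) without the richest barcodes, and fibroblasts had 22 and 5 UMIs. Zbp1, a sensor of Z-form nucleic acid, and Oasl2 were lower in HFD in fibroblasts (2.42-fold and 1.96-fold) and in macrophages (2.94-fold and 2.87-fold). In endothelial cells Zbp1 had 9 and 5 UMIs and Oasl2 22 and 11. Bst2, or tetherin, was not past the fold in any of these classes, at 1.38-fold, 1.29-fold and 1.24-fold lower in HFD. Ifitm3, a membrane protein that blocks viral entry, was the most abundant member in fibroblasts and stood at 1968 CPM in LFD and 2009 CPM in HFD. In endothelial cells it was at 2175 and 1965 CPM, but in macrophages at 1552 and 884 CPM (1.76-fold, 1.66 to 1.86). Xaf1 was past the fold in endothelial cells and macrophages, at 1.65-fold and 2.57-fold, the first of which was no longer past it without the richest barcodes, and not in fibroblasts (1.24-fold, 0.851 to 1.82). Usp18 (19 and 10 UMIs in fibroblasts, 24 and 3 in endothelial cells, 24 and 13 in macrophages) and Ifi44 (7 and 2, 14 and 6, 0 and 0) stayed below 50 UMIs.

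Among the factors, Irf1, which drives many genes downstream of interferon gamma, differed most in fibroblasts. It stood at 167 CPM in LFD and 44.2 CPM in HFD there (3.78-fold, 3.06 to 4.69), with a UMI in 50.9% and 26.8% of cells. In endothelial cells it was at 275 and 124 CPM (2.22-fold, 1.65 to 3.02) and in macrophages at 172 and 95.5 CPM (1.80-fold, 1.51 to 2.14). Stat2, a subunit of the ISRE-binding complex, was 2.86-fold lower in HFD fibroblasts (1.71 to 5.03) and 3.84-fold lower in HFD macrophages (2.27 to 6.64), with 24 and 13 UMIs in endothelial cells. Irf9, its DNA-binding partner, was 1.70-fold, 2.34-fold and 1.79-fold lower in HFD fibroblasts, endothelial cells and macrophages, although it overlaps Rnf31 on the same strand. Irf7, which amplifies type I interferon production, was 1.58-fold lower in HFD macrophages (1.03 to 2.42) and 1.37-fold in fibroblasts, with an interval that held 1 (0.941 to 2.01), and had 35 and 14 UMIs in endothelial cells.

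The ligand and receptor genes were taken from a list of 92 other pathway genes, of which 89 were found. Ifng had 66 UMIs in 28 barcodes of the LFD library and 6 UMIs in 5 barcodes of the HFD library. Of these, 53 UMIs in 20 of 72 T cells came from LFD and 4 UMIs in 3 of 21 T cells from HFD, or 162 CPM (121 to 211) and 85.2 CPM (23.2 to 218). A further 11 LFD UMIs and 1 HFD UMI came from barcodes of no class with Nkg7, a gene of cytotoxic cells. No Ifng UMI was seen in fibroblasts of either library, with exact Poisson upper bounds of 1.17 CPM in LFD and 1.52 CPM in HFD. Endothelial cells had 0 and 1 UMIs and macrophages 1 and 0. Ifnb1 had 1 and 2 UMIs in macrophages and Ifnk 0 and 2, and no UMI of the listed alpha or lambda interferon genes was seen in these classes.

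The receptor genes were not lower in HFD throughout. Ifngr1, the ligand-binding chain for interferon gamma, stood at 226 and 212 CPM in LFD and HFD fibroblasts, 293 and 356 CPM in endothelial cells, and 179 and 142 CPM in macrophages. Ifngr2, its partner chain, was higher in HFD in fibroblasts (44.9 against 69.8 CPM, a ratio of 1.55) and in macrophages (58.1 against 101 CPM, a ratio of 1.74). Ifnar1 and Ifnar2, the chains of the type I receptor, had HFD over LFD ratios of 1.29 and 1.06 in fibroblasts, 1.61 and 1.27 in endothelial cells, and 1.13 and 0.874 in macrophages.

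Over all other pathway genes with enough UMIs, 17 of 56 were lower and 1 was higher past the fold in HFD fibroblasts, against 8.59% and 4.9% of all genes. In endothelial cells 17 of 45 were lower and 4 higher, against 5.62% and 5.71%, and in macrophages 22 of 60 were lower and 4 higher, against 16.8% and 14.2%. In the double endothelial and mural barcodes 5 of 50 were lower and 0 higher (4.24% and 5.11% of all genes), and in T cells 4 of 24 were lower and 5 higher (20.6% and 12.7%). Cxcl9, a chemokine induced by interferon gamma, had the lowest HFD over LFD ratio in fibroblasts and macrophages. It had 48 UMIs in LFD and 7 in HFD fibroblasts (5.26-fold, 2.37 to 13.8) and 389 and 34 in macrophages, where it stood at 263 and 11.7 CPM (22.4-fold, 15.8 to 32.9). These UMIs came from few barcodes, with 7 and 7 positive fibroblasts and 10 and 7 positive macrophages. Gm4951, a GTPase related to Iigp1, came next in fibroblasts (4.83-fold, 2.46 to 10.6) and macrophages (6.39-fold, 3.96 to 10.7). Cmpk2, a nucleotide kinase next to Rsad2 in the genome, was lowest in endothelial cells (3.52-fold, 1.88 to 7.08). At the other end were Psmb6 and Psmb5, catalytic subunits of the constitutive proteasome, with HFD over LFD ratios of 1.91 and 1.78 in macrophages, and Nfkb1 with 1.91 in endothelial cells.

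Within class I presentation, the chains at the cell surface differed little. B2m stood at 716 and 545 CPM in LFD and HFD fibroblasts (1.31-fold, 1.23 to 1.41), 1532 and 1142 CPM in endothelial cells (1.34-fold, 1.21 to 1.49) and 1281 and 972 CPM in macrophages (1.32-fold, 1.24 to 1.398). H2-K1 was 1.30-fold, 1.39-fold and 1.38-fold lower in HFD in these classes. H2-D1 was 1.22-fold, 1.13-fold and 1.05-fold lower, with 1916 and 1817 CPM in macrophages. None of these passed the fold, and class I genes share sequence, so reads can be split between them. The peptide-loading genes differed most in macrophages, where Tap1 was 2.08-fold (1.52 to 2.86), Tap2 1.51-fold (1.09 to 2.07) and Tapbp 1.70-fold (1.44 to 2.001) lower in HFD. In fibroblasts Tap1 alone was past the fold (1.68-fold, 1.12 to 2.57), Tapbp lay just inside it (1.49-fold, 1.29 to 1.72) and Tap2 was at 1.11-fold. In endothelial cells Tap1 was 1.26-fold lower in HFD (0.794 to 2.03), Tap2 1.36-fold lower (0.952 to 1.95), and Tapbp stood at 165 CPM in LFD and 178 CPM in HFD. Each of these endothelial intervals held 1.

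The immunoproteasome subunits were likewise close between diets, and Psmb9 in fibroblasts was the only one past the fold in the 3 main classes (1.55-fold lower in HFD, 1.18 to 2.05). It stood at 179 and 145 CPM in endothelial cells and at 83.1 and 69.3 CPM in macrophages. Psmb8 stood at 105 and 89.2 CPM in fibroblasts, 508 and 372 CPM in endothelial cells and 268 and 216 CPM in macrophages. Psmb10 differed by 1.05-fold, 1.09-fold and 1.03-fold. Set against the constitutive subunits they replace, immunoproteasome UMIs made up 37.3% (35.3 to 39.3%) of catalytic subunit UMIs in LFD and 31.2% (29.0 to 33.4%) in HFD fibroblasts. The share was 62.5% (59.1 to 65.8%) and 56.8% (53.0 to 60.5%) in endothelial cells, and 55.9% (53.1 to 58.7%) and 38.9% (37.1 to 40.6%) in macrophages. In macrophages the immunoproteasome subunits stood at 470 and 401 CPM and the constitutive subunits at 370.3 and 631 CPM, so the constitutive subunits differed more.

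T cells had few barcodes in HFD, and their values depended on scaling and single barcodes. Class I expression was highest there, at 9688 CPM (9354 to 10030) in LFD and 12121 CPM (11145 to 13159) in HFD, an LFD over HFD ratio of 0.799 (0.731 to 0.875). With TMM scaling the ratio was 0.992, and thinned to 1000 UMIs it was 0.927 with an interval that held 1. H2-K1 stood at 3284 and 4346 CPM and Psmb9 at 162 and 383 CPM, the only member past the fold upward. The other members with at least 50 UMIs were not past it, with LFD over HFD ratios from 0.703 for Psmb8 to 1.29 for Tapbp, apart from Ifitm3. Gamma-type genes were at 290 and 383 CPM, with an LFD over HFD ratio of 0.756 (0.453 to 1.33) that rests on 95 and 18 UMIs. Type I genes were at 64.0 and 426 CPM on 21 and 20 UMIs, of which 1 HFD barcode with 1781 UMIs held 17. Without the richest barcodes 18 and 3 UMIs were left. Ifitm3 had 111 UMIs in 12 LFD T cells and 1 UMI in HFD, beside the macrophage markers in the LFD class given above, whose part in this difference was not tested. The immunoproteasome share was 71.9% and 72.6%.

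Most members stood higher in endothelial cells than in fibroblasts. In the LFD library 25 of 32 members were at least 2-fold higher in endothelial cells than in fibroblasts, against 14.6% of all genes, and in the HFD library 19 of 24, against 15.3%. No member was at least 2-fold lower in either library, against 19.7% of all genes in LFD and 19% in HFD. The gamma-type list was 4.12-fold higher in LFD (3.82 to 4.44) and 5.27-fold higher in HFD (4.61 to 6.03), and the class I list 2.84-fold and 2.89-fold. The type I list was 6.41-fold higher in LFD and 2.53-fold higher in HFD. Without the richest barcodes these were 1.56 and 1.29 on the log2 scale, and the LFD value was 1.30 under the barcode limits of the study and 1.34 when thinned. Rsad2 differed most, with 485 against 6.96 CPM in LFD (69.6-fold, 45.1 to 113) and 130 against 2.06 CPM in HFD (62.9-fold, 25.6 to 200). Without the barcodes richest in type I UMIs its LFD levels were 210 and 6.70 CPM. Gbp4 was 19.0-fold higher in LFD endothelial cells (11.6 to 32.1), Bst2 6.11-fold (5.30 to 7.05) and Psmb8 4.82-fold (4.10 to 5.67). Ifitm3 and Tapbp were near parity in LFD, at 1.10-fold and 0.895-fold. In HFD Ifitm3 stayed there at 0.978-fold, while Tapbp was at 1.44-fold (1.13 to 1.83). Scaling by TMM (a trimmed mean of gene ratios) moved endothelial and fibroblast levels by 0.11 in opposite directions on the log2 scale, and every list stayed higher in endothelial cells.

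By members past the fold, macrophages and fibroblasts were more alike. By list, the macrophage over fibroblast ratios in LFD and HFD were 1.82 and 1.90 for class I and 1.36 and 1.19 for type I. For the gamma-type list they were 0.923 (0.844 to 1.01) and 0.497 (0.423 to 0.583). Against fibroblasts, 7 of 31 members were at least 2-fold higher in macrophages in LFD and 5 of 27 in HFD, against 15.8% and 17.1% of all genes. At least 2-fold lower were 1 of 31 in LFD (Iigp1) and 3 of 27 in HFD (Iigp1, Gbp2 and Ifitm3), against 22.5% and 20% of all genes. Iigp1 was lower in macrophages, with a ratio of 0.401 (0.331 to 0.483) in LFD and 0.117 (0.0692 to 0.187) in HFD. Psmb8 was higher, with ratios of 2.55 and 2.42, and H2-D1 with 2.21 and 2.55.

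**Figure D4:**
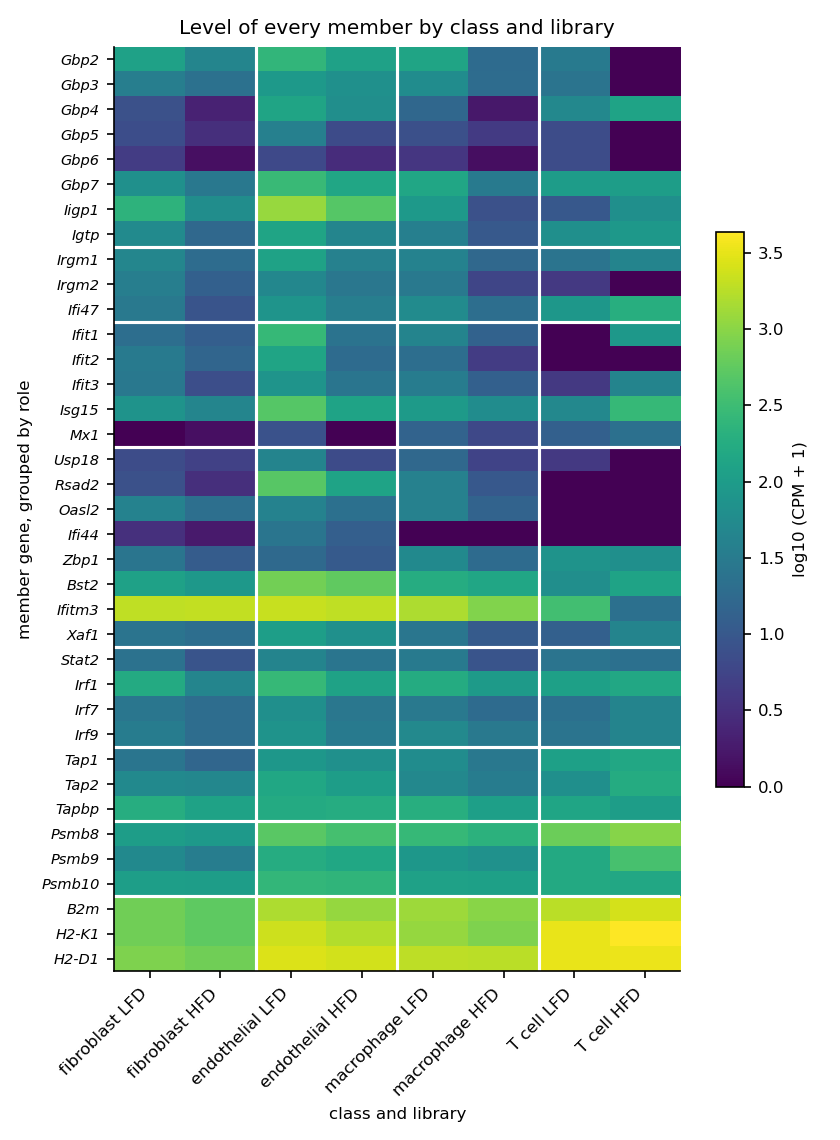
Level of each member (rows, grouped by role) as log10 of CPM plus 1 (colour) in 4 classes of each library (columns). Ifitm3 and the class I chains are bright in most columns, Iigp1 is brightest in LFD endothelial cells (1205 CPM), and T cells show the brightest class I chains (H2-K1 at 3284 and 4346 CPM).

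Other features of the classes moved with diet, and their part in the values above was not tested. In macrophages 4 resident-type markers (Timd4, Lyve1, Cd163 and Folr2) stood at 3392 CPM in LFD and 1257 CPM in HFD, and 4 lipid-associated markers (Trem2, Spp1, Cd9 and Gpnmb) at 105 and 2340 CPM. Of the LFD macrophages 151 of 229 had no Trem2, Spp1 or Gpnmb UMI, against 74 of 320 in HFD. Within these, the log2 HFD over LFD was -1.57 for the gamma-type list (-1.93 to -1.23), -2.07 for the type I list (-2.69 to -1.504) and -0.29 for the class I list (-0.36 to -0.21). In fibroblasts, 150 of 377 LFD and 159 of 291 HFD cells had no UMI of Pi16 or Dpp4, genes of early progenitors. Within these the log2 value was -1.13 for the gamma-type list (-1.403 to -0.87), -0.53 for the type I list (-0.92 to -0.14) and 0.01 for the class I list (-0.07 to 0.09). Immediate early and heat shock genes, which respond to tissue dissociation, stood at 15125 and 13554 CPM in fibroblasts, 13740 and 11228 CPM in endothelial cells and 10640 and 5950 CPM in macrophages. Dendritic cell markers in macrophages stood at 202 and 74.8 CPM, T cell markers there at 25.7 and 128 CPM, and red cell markers in the endothelial class at 5853 and 8006 CPM. The 3 mesothelial markers made up 596 and 391 CPM of the fibroblast class and 4 adipocyte markers 1250 and 376 CPM of the endothelial class. In barcodes of no class, 210 in LFD and 243 in HFD, the gamma-type list was at 166 and 84.0 CPM, the type I list at 154 and 62.1 CPM and the class I list at 5215 and 4785 CPM.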

How the data were processed

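The authors deposited raw UMI counts per gene and barcode for each library, made with Cell Ranger on mm10, and the file header names version 3.0.2. The counts came from 3' libraries, so levels of genes were compared without a length correction. The tables hold barcodes called as cells before the limits of the study, 200 to 2500 genes and under 5% mitochondrial UMIs, which 294 LFD and 352 HFD barcodes met. These limits were applied only as an alternative.

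Counts were summed per library and class and divided by all UMIs of that class (CPM). Levels carry exact Poisson intervals, ratios exact conditional binomial intervals and shares Clopper-Pearson intervals. These cover counting error only, since a diet had 1 library. For the count past the fold, 0.5 UMIs were added to each sum. No doublet caller was run, and barcodes that met several class rules were left out. Thinning drew 1000 UMIs per barcode and left out shallower barcodes. The intervals were checked on simulated independent Poisson counts with known ratios, which leave out the clustering of UMIs in single barcodes. Python 3.11.15 with scipy 1.17.1 was used, with TMM factors from edgeR 4.0.16. Promoters came from RefSeq and gene overlaps from GENCODE M21.

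All 37 members are accounted for, with values in fibroblasts, endothelial cells and macrophages for those with at least 50 UMIs over both libraries and counts for the rest. Of other pathway genes, the 3 highest and 3 lowest ratios per class could be named, with ligands and receptors whatever their ratio. 1 further gene of the rule is not reported. The members and lists were chosen with earlier results of these data known. Gbp11, Cxcl11 and Mx2 of the pathway lists were not found under these symbols.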

Additional observations from a re-analysis of the deposited data

Results flagged for a closer look

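The T cell class had values of the opposite sign to the fibroblast, endothelial and macrophage classes. Its log2 HFD over LFD was 0.40 for the gamma-type list, 2.73 for the type I list and 0.32 for the class I list, while each list was below 0 in the other classes. The interval of the gamma-type value held 0 (-0.41 to 1.14), and the class I value was 0.012 with TMM scaling (-0.12 to 0.14). With 1 library per diet the difference between classes was not tested. The HFD side held 21 T cells. Without the barcode richest in each list the gamma-type value was -0.41 (-1.59 to 0.58) and the type I value 0.23 (-2.18 to 2.01).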

How the results depend on the processing

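No paired analysis was possible because each diet had 1 library. Doubling the class thresholds left all 21 list values within their intervals. Values below are log2, with diet values as HFD over LFD, and the cause of a move was not tested unless the setting itself names it. The type I list in macrophages reversed under the limits of the study, to 0.47 on 84 and 39 UMIs. Those limits also moved 13 of the 21 list values, not all of which are given here. They gave -1.12 in fibroblasts and -1.21 in macrophages for the gamma-type list, -0.70 for the type I list in endothelial cells, and 0.0082, -0.25 and -0.090 for the class I list in fibroblasts, endothelial cells and macrophages. For endothelial cells over fibroblasts they gave 2.57 (gamma-type, LFD), 1.30 and 1.79 (type I, LFD and HFD) and 1.91 and 1.65 (class I). Keeping barcodes of several classes gave -1.53 for type I in endothelial cells and 0.16 for class I in T cells, and endothelial over fibroblast values of 1.65 and 2.09 (gamma-type), 1.79 (type I, LFD) and 1.21 and 1.18 (class I). Thinning to 1000 UMIs gave -2.14 and -2.21 for the gamma-type list in fibroblasts and macrophages, -0.999 and -0.74 for type I in endothelial cells and macrophages, and -0.22, -0.13 and 0.11 for class I in fibroblasts, macrophages and T cells. Its endothelial over fibroblast values were 1.92 and 2.96 (gamma-type), 1.34 (type I, LFD) and 1.63 (class I, LFD). TMM scaling gave -0.19 and 0.012 for class I in macrophages and T cells, and 1.82 and 2.17 (gamma-type), 2.46 (type I, LFD) and 1.28 and 1.31 (class I) between endothelial cells and fibroblasts.

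Without Iigp1 the gamma-type value was -1.36 in fibroblasts, and 1.67 and 1.94 between endothelial cells and fibroblasts. Without Isg15 the type I values were -1.24, -2.90 and -1.70 in fibroblasts, endothelial cells and macrophages. Without H2-D1 class I was -0.41 and -0.43 in endothelial cells and macrophages, and 1.41 and 1.38 between endothelial cells and fibroblasts. Settings chosen after seeing the data were the subsets and the removal of the barcode richest in a list. Without that barcode the gamma-type list was at -1.78 in fibroblasts and -0.41 in T cells, type I at -1.34 in endothelial cells and 0.23 in T cells, and the endothelial over fibroblast values at 2.67 (gamma-type, HFD) and 1.56 (type I, LFD). Fibroblasts without Pi16 or Dpp4 gave -1.13, -0.53 and 0.011 for the gamma-type, type I and class I lists, and macrophages without Trem2, Spp1 or Gpnmb -1.57 and -2.07 for the gamma-type and type I lists. With a fold of 2, 12 of the 30 members with enough UMIs were lower in HFD fibroblasts. With no UMI minimum 1 member was higher in HFD fibroblasts, 25 were lower in endothelial cells, and 3 were lower and 16 higher in T cells. These last counts depend on the 0.5 UMIs added to T cell sums of unequal depth (327944 UMIs in LFD and 46943 in HFD). Irgm2 and Usp18, with 1 LFD UMI and 0 HFD UMIs in T cells, count as higher. The fibroblast member is Mx1, on 0 and 1 UMIs. With a minimum of 20 UMIs 6 members were higher in T cells. No share over all genes is given at these settings, so the counts are not read against one. The 21 HFD T cell barcodes held 46943 UMIs.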
